A study of Mus musculus with 4 samples.

Results

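Glucocorticoid signaling was examined in the hippocampus through 10 genes, out of 22609 gene symbols counted. They comprise the 2 corticosteroid receptors Nr3c1 and Nr3c2, the enzyme Hsd11b1, and 7 target genes, Fkbp5, Zbtb16, Tsc22d3, Klf9, Pdk4, Errfi1 and Sgk1. The genes were picked by symbol, starting from the higher level of Fkbp5 in FBN-ARO-KO+GCI that was already known from these libraries, and the question was whether other glucocorticoid targets share it. For that reason the difference between genotypes of the 10 genes is given as a description, with no test. The measurements are RNA-Seq read counts from 4 libraries, 2 of FLOX+GCI and 2 of FBN-ARO-KO+GCI. All libraries came from ovariectomized female mice of 3 to 5 months, operated 1 week before global cerebral ischemia (GCI), in which both common carotid arteries were clipped for 20 min and reperfused for 24 h. In FBN-ARO-KO mice, Cre driven by the CaMKIIα promoter removes Cyp19a1, the aromatase gene, from excitatory neurons of the forebrain, so glia and other cells keep the gene, and FLOX mice are the controls. No sham library was analysed here, so what ischemia itself did to these genes was not measured.

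Corticosterone, the main glucocorticoid of the mouse, binds 2 nuclear receptors in the hippocampus, the high-affinity mineralocorticoid receptor and the lower-affinity glucocorticoid receptor, which is occupied mostly during stress and at the daily peak of the hormone. Without hormone the glucocorticoid receptor sits in the cytoplasm in a complex with HSP90 and co-chaperones, and with hormone it enters the nucleus and binds glucocorticoid response elements, palindromes of 2 half-sites set 3 bases apart. FKBP5 (FKBP51) is a co-chaperone that lowers the affinity of the receptor for hormone and is itself induced by the receptor, which closes a short negative feedback loop. Its gene is known to carry receptor-bound elements inside introns, and it is widely used as a readout of glucocorticoid exposure, together with Tsc22d3, Sgk1, Zbtb16, Klf9 and Pdk4.

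Counts on genes totaled between 24333396 and 33076795 per library. At these totals 3 counts, the floor used here for counting error, correspond to between 0.0907 and 0.123 CPM (the usual scale for counts relative to the library total). The floor was taken on library totals alone, and the CPM values of genes carry TMM factors throughout. Each of the 10 genes had at least 261 counts in each library and passed the filter on low counts, so none of their values below lies near this floor. Counting error can still matter where libraries of the groups nearly touch. The targeted gene Cyp19a1 (chromosome 9 of mm9, 54013744 to 54115917) had a count of 4 and 1 in the FLOX+GCI libraries and of 2 and 2 in those of FBN-ARO-KO+GCI, which cannot check the genotype labels. The markers used for excitatory hippocampal neurons (Slc17a7, Neurod6, Prox1, Wfs1, Camk2a and Zbtb20) were all detected, with a summed level between 7144 and 7448 CPM. The sources used here do not say whether the libraries of a genotype come from separate mice. If they do not, the spread between them may be technical.

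The elements that the receptor binds were searched in the mm9 sequence around the 10 genes, to place each gene beside its possible control sequences. A strict form, GAACANNNTGTTC, and a loose form, GNACANNNTGTNC, were used. Both are palindromes, so that a match is read on either strand, and every strict match is also a loose one. Within 10 kb on either side of the first annotated start, none of the 10 genes held the strict form, which 2.54% of 14192 tested genes held, and 4 held the loose form, Fkbp5, Sgk1, Klf9 and Pdk4, against 28.7% of tested genes. Fkbp5 had 5 loose matches in this window, a number that 0.0352% of tested genes reached or passed. Within 100 kb on either side, 4 of the 10 genes (Fkbp5, Klf9, Errfi1 and Nr3c2) held a strict match, against 22.6% of tested genes, and Fkbp5 held 3, a number that 0.218% of tested genes reached or passed. The strict matches of Fkbp5, Sgk1, Klf9, Errfi1 and Nr3c2 that lie within 100 kb or inside the gene, the loose match of Fkbp5 nearest to its start, and the loose match of Pdk4 are printed on the strand of the gene, as the candidate elements of the gene the question starts from and of the members compared with it. Positions count from the first annotated start, with negative values upstream. Capitals mark the match, with 8 bases of flank on each side.
Fkbp5, strict, intron, position 97196, chr17:28557259-28557287, minus strand: cacattcaGAACAGGGTGTTCtgtgctct
Fkbp5, strict, intron, position 75098, chr17:28579357-28579385, minus strand: ttgtttgaGAACAGCTTGTTCtaggcttt
Fkbp5, strict, upstream, position -65438, chr17:28719893-28719921, minus strand: gagagagaGAACATAATGTTCctggcaga
Fkbp5, loose, upstream, position -662, chr17:28655117-28655145, minus strand: ctcgcccgGGACATTGTGTTCcagcccca
Sgk1, strict, intron, position 111524, chr10:21713500-21713528, plus strand: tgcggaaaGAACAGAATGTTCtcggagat
Klf9, strict, downstream of the gene, position 73170, chr19:23288872-23288900, plus strand: aaggcaagGAACACTGTGTTCcttaggaa
Errfi1, strict, upstream, position -74952, chr4:150153062-150153090, plus strand: cttgggagGAACAGTCTGTTCcagggcca
Nr3c2, strict, upstream, position -24116, chr8:79399211-79399239, plus strand: ggaataaaGAACATACTGTTCtctgcaga
Nr3c2, strict, intron, position 302564, chr8:79725891-79725919, plus strand: tgtccacaGAACAGAATGTTCgatttatc
Pdk4, loose, upstream, position -6277, chr6:5452572-5452600, minus strand: tctaactaGAACACTGTGTCCagtatagg

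The Sgk1 match lay outside the 100 kb window because the gene is annotated from a distant first exon. The same 29 bases stand in the RefSeq promoter table of GRCm38.p6, centred 182 bases before the start of another Sgk1 transcript, and this was the only strict match in the promoters listed for the members, where 0.0578% of all promoters hold one. Nr3c1 and Zbtb16 were not in that table. Tsc22d3, Zbtb16, Hsd11b1 and Nr3c1 held neither form in the windows searched, which says only that these letters do not occur there.

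**Figure D1:**
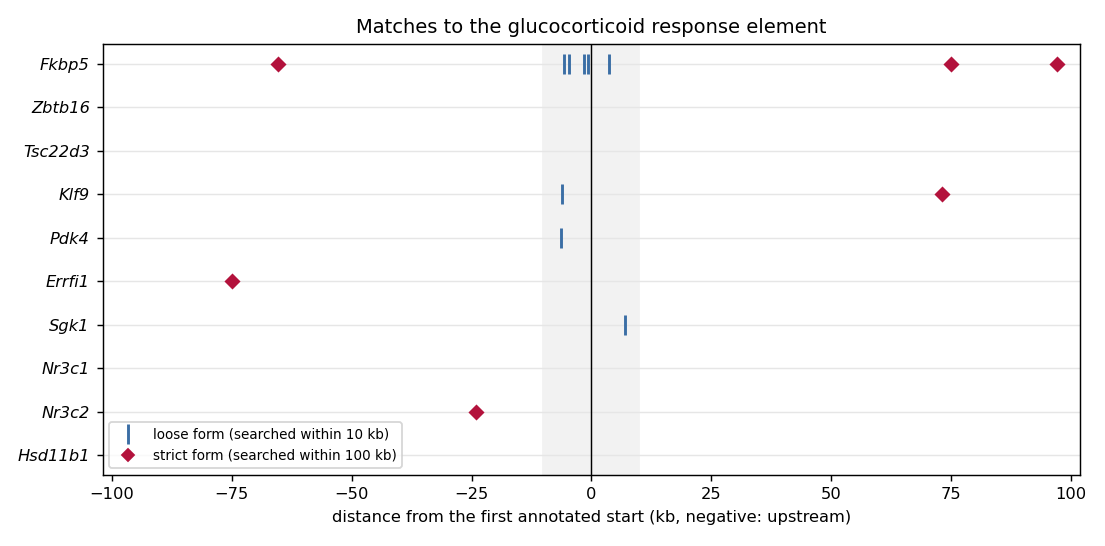
Positions of matches to the glucocorticoid response element around the 10 genes, as the distance in kb from the first annotated start (x axis, negative values upstream), with 1 row for each gene. Diamonds are strict matches within 100 kb and ticks are loose matches within 10 kb (shaded). Fkbp5 held 3 diamonds and 5 ticks, and 4 genes held none of either.

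Among the target genes, Fkbp5 did not stand alone. Zbtb16, Tsc22d3 and Klf9 were higher in both FBN-ARO-KO+GCI libraries than in either FLOX+GCI library, with fitted differences between the genotypes of 20.4% to 30.6%, beside 34.1% for Fkbp5. Pdk4 and Errfi1 were higher in both as well, the first mainly in 1 library and the second by 11.2%. Sgk1 did not follow, since its libraries overlapped. The receptors and Hsd11b1 differed by less than 10% between genotypes. In all, 7 of the 10 genes lay higher without overlap, and 0 lower, where 25.9% of all 14527 genes tested lay higher and 25.8% lower without overlap. Nothing is read from this count, since the genes were chosen with the contrast known. It also includes narrow gaps between the nearest libraries. For Nr3c1 these were at 96.55 CPM in FLOX+GCI and 96.69 CPM in FBN-ARO-KO+GCI, and for Pdk4 at 11.15 and 11.58 CPM. In bulk tissue a difference in the number of cells that express a gene cannot be told apart from a difference in RNA per cell.

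Fkbp5 (chromosome 17, 28536040 to 28654469) had 102.3 and 116.3 CPM in FLOX+GCI replicates 1 and 2, and 146.3 and 146.7 CPM in FBN-ARO-KO+GCI. The FBN-ARO-KO+GCI libraries were nearly equal, and the lower of them exceeded the higher FLOX+GCI library. The log2 fold change was 0.42 (SE 0.08), larger than that of 96.8% of the genes tested counting Fkbp5 itself. With 1 library left out in turn it stayed between 0.34 and 0.52.

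Zbtb16 (chromosome 9, 48462416 to 48644050), the zinc finger repressor PLZF and a strongly induced glucocorticoid target in many cell types, had 76.8 and 84.5 CPM in FLOX+GCI and 100.9 and 109.9 CPM in FBN-ARO-KO+GCI. The groups were apart, with a log2 fold change of 0.39 (SE 0.09) and between 0.32 and 0.45 with a library left out. Set against Fkbp5 in the same library, which needs no scaling between libraries, Zbtb16 stood at 75.2% and 72.7% of the Fkbp5 CPM in FLOX+GCI and at 68.9% and 74.9% in FBN-ARO-KO+GCI. The ratio of both genes thus overlapped between genotypes while each gene alone did not.

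Tsc22d3 (chromosome X, 137074067 to 137135198), which encodes the anti-inflammatory leucine zipper protein GILZ, had 72.9 and 73.6 CPM in FLOX+GCI and 83.7 and 106.0 CPM in FBN-ARO-KO+GCI. The FLOX+GCI libraries were almost equal, and the spread lay within FBN-ARO-KO+GCI. The log2 fold change was 0.37 (SE 0.11), and it was 0.19 without FBN-ARO-KO+GCI replicate 2 and 0.53 without replicate 1. Klf9 (chromosome 19, 23215716 to 23241401), a Krüppel-like repressor that rises with corticosterone in hippocampal neurons, had 154.4 and 173.6 CPM in FLOX+GCI and 186.5 and 208.5 CPM in FBN-ARO-KO+GCI. Within each genotype replicate 2 was higher by a similar step (1.12-fold in both), and the groups did not overlap. The log2 fold change of Klf9 was 0.27 (SE 0.09).

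Pdk4 (chromosome 6, 5433351 to 5446309) encodes the kinase that holds pyruvate dehydrogenase inactive and spares glucose, and it was the least abundant of the genes. It had 10.4 and 11.2 CPM in FLOX+GCI and 11.6 and 20.0 CPM in FBN-ARO-KO+GCI. Replicate 2 of FBN-ARO-KO+GCI stood far above the other 3 libraries, which lay close together. The log2 fold change was therefore 0.55 (SE 0.24) with all libraries, 0.10 without FBN-ARO-KO+GCI replicate 2 and 0.89 without replicate 1. Errfi1 (chromosome 4, 150228028 to 150243001), the EGF receptor inhibitor MIG6, had 61.8 and 63.2 CPM in FLOX+GCI and 70.3 and 68.7 CPM in FBN-ARO-KO+GCI. The gap was small and the replicates were closer still, with a log2 fold change of 0.15 (SE 0.08).

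Sgk1 (chromosome 10, 21601990 to 21719709) encodes a kinase that both corticosteroid receptors induce and that regulates ion channels and transporters. It had 87.6 and 139.8 CPM in FLOX+GCI and 119.3 and 118.3 CPM in FBN-ARO-KO+GCI. Both FBN-ARO-KO+GCI libraries fell between the FLOX+GCI libraries, which were 1.6-fold apart, the widest FLOX+GCI gap of the 10 genes. The log2 fold change was 0.06 (SE 0.19). It was -0.23 without FLOX+GCI replicate 1 and 0.44 without FLOX+GCI replicate 2, so these libraries set no direction for Sgk1. Relative to Fkbp5 in the same library, Sgk1 stood at 85.7% and 120.2% in FLOX+GCI and at 81.6% and 80.6% in FBN-ARO-KO+GCI.

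The receptors were expressed at steady levels. Nr3c1 (chromosome 18, 39570199 to 39650955), the glucocorticoid receptor, had 96.6 and 89.0 CPM in FLOX+GCI and 96.7 and 106.8 CPM in FBN-ARO-KO+GCI. The groups all but touched, since FLOX+GCI replicate 1 and FBN-ARO-KO+GCI replicate 1 differed by less than 1 CPM, and the log2 fold change was 0.13 (SE 0.09), between 0.06 and 0.20 with a library left out. Nr3c2 (chromosome 8, 79423341 to 79768911), the mineralocorticoid receptor, had 155.4 and 168.2 CPM in FLOX+GCI and 159.0 and 171.2 CPM in FBN-ARO-KO+GCI, overlapping ranges with a log2 fold change of 0.03 (SE 0.08). An exon of Nr3c2 overlaps Gm10649 on the opposite strand, and with the strand setting of the counting not stated their reads cannot be told apart. Hsd11b1 (chromosome 1, 195047824 to 195090248), the reductase that regenerates corticosterone from 11-dehydrocorticosterone inside cells, had 39.8 and 33.1 CPM in FLOX+GCI and 40.7 and 37.3 CPM in FBN-ARO-KO+GCI, again overlapping. Its log2 fold change was 0.10 (SE 0.11), and -0.03 without FLOX+GCI replicate 2.

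**Figure D2:**
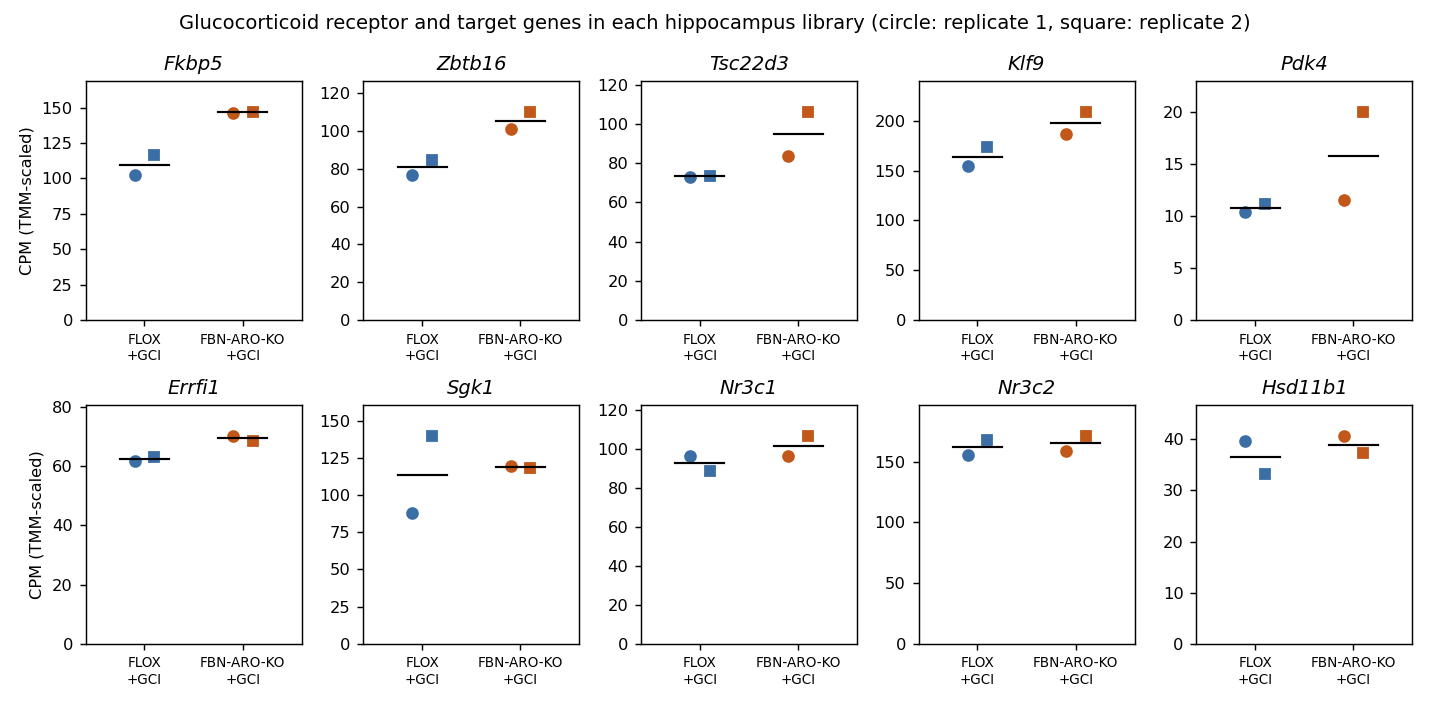
CPM of each of the 10 genes (y axis from 0, scaled by TMM) in FLOX+GCI (blue) and FBN-ARO-KO+GCI (orange), with circles for replicate 1, squares for replicate 2 and a bar for the mean of the 2 libraries. Fkbp5, Zbtb16, Tsc22d3 and Klf9 lie higher in both FBN-ARO-KO+GCI libraries, Pdk4 is pulled up by replicate 2 at 20.0 CPM, and the FLOX+GCI libraries of Sgk1 at 87.6 and 139.8 CPM enclose those of FBN-ARO-KO+GCI.

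Per kb of the longest coding transcript, the order of mean levels was the same in both genotypes. In FLOX+GCI it ran from Klf9 (50.3 CPM per kb) through Tsc22d3 (37.1), Sgk1 (36.7), Fkbp5 (28.3), Nr3c2 (27.4), Hsd11b1 (23.0), Errfi1 (20.5), Zbtb16 (15.8) and Nr3c1 (14.4) to Pdk4 (3.10 CPM per kb). Tsc22d3 and Sgk1, Sgk1 and Fkbp5, and Fkbp5 and Nr3c2 overlapped between their FLOX+GCI libraries, so these neighbors were not separated. In FBN-ARO-KO+GCI the level of Fkbp5 was 38.0 ± 0.0709 CPM per kb (SD, n = 2) and that of Nr3c2 27.9 ± 1.45 CPM per kb (SD, n = 2), which no longer overlapped.

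Profiles over the 4 libraries were also ranked by their distance from Fkbp5, on centred log2 CPM, among 14526 genes. Zbtb16 came 34th (nearer than all but 0.234% of genes), Klf9 came at rank 263, Tsc22d3 at 1148 and Errfi1 at 1502. Sgk1 was at rank 6496 and Pdk4 at 8726, behind both receptors, at 3568 for Nr3c1 and 4484 for Nr3c2. Among the nearest 5 genes outside the set with a mean of at least 50 counts were Invs, Lrrn1, Zbtb26 and Gpt2. Lrrn1, for example, had 121.7 and 138.3 CPM in FLOX+GCI and 167.4 and 172.7 CPM in FBN-ARO-KO+GCI. With 4 libraries such a rank describes these libraries and no more.

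The median log2 fold change of the 10 genes was 0.21, and that of the 6 targets other than Fkbp5 was 0.32, beside -0.01 over all genes tested.

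**Figure D3:**
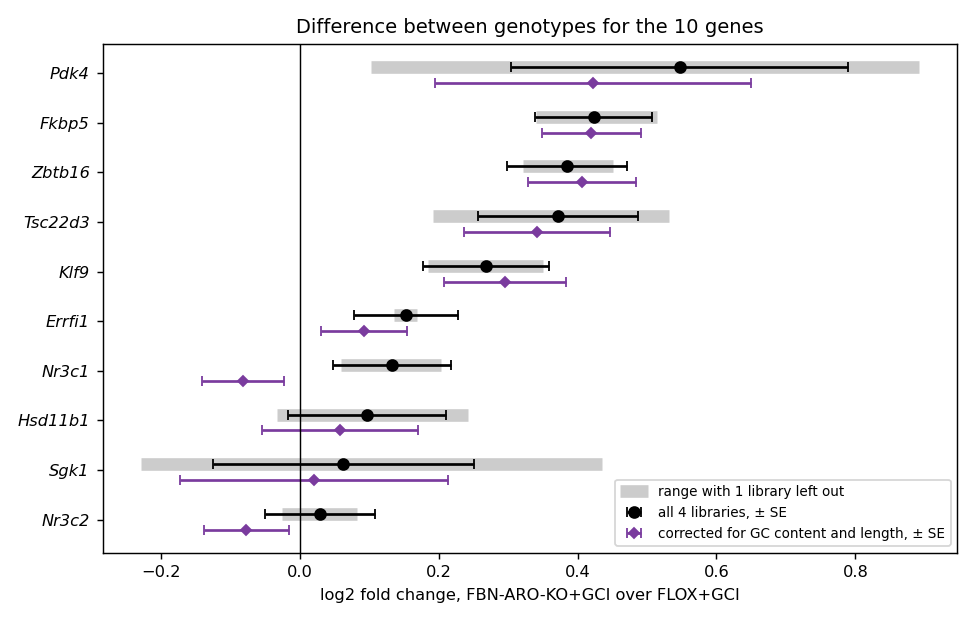
Log2 fold change of each gene (x axis, FBN-ARO-KO+GCI over FLOX+GCI), with circles and bars for the estimate ± SE from 4 libraries, gray bands for the range with 1 library left out, and diamonds for the estimate ± SE after correction for GC content and length. Pdk4 (0.10 to 0.89) and Sgk1 (-0.23 to 0.44) have the widest bands, and the diamonds of Nr3c1 and Nr3c2 lie below 0.

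The ratio between genotypes followed the base composition of the transcript in these libraries, with a Spearman's rho of -0.55 between log2 fold change and GC content over 13869 genes, which are not independent. Replicate 2 and replicate 1 of FBN-ARO-KO+GCI differed along GC content too (rho -0.48), while the FLOX+GCI libraries did less (rho 0.10). Genes at or below 45% GC had a median log2 fold change of 0.18, and those at or above 55% one of -0.17. Zbtb16 had 53.7% GC, Klf9 52.5% and Fkbp5 51.6%, all above the median of 50.6% for the genes tested, whereas Nr3c1 had 42.2%, Pdk4 44.9% and Tsc22d3 48.0%. With the trend of every library over GC content and transcript length removed, the log2 fold change was 0.42 (SE 0.07) for Fkbp5, 0.41 (SE 0.08) for Zbtb16, 0.34 (SE 0.10) for Tsc22d3 and 0.29 (SE 0.09) for Klf9. Pdk4 moved to 0.42 (SE 0.23) and Errfi1 to 0.09. The receptors changed sign, to -0.08 for Nr3c1 and -0.08 for Nr3c2. The correction brought the rho over all genes to 0.01, and the median of the 10 genes to 0.19.

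**Figure D4:**
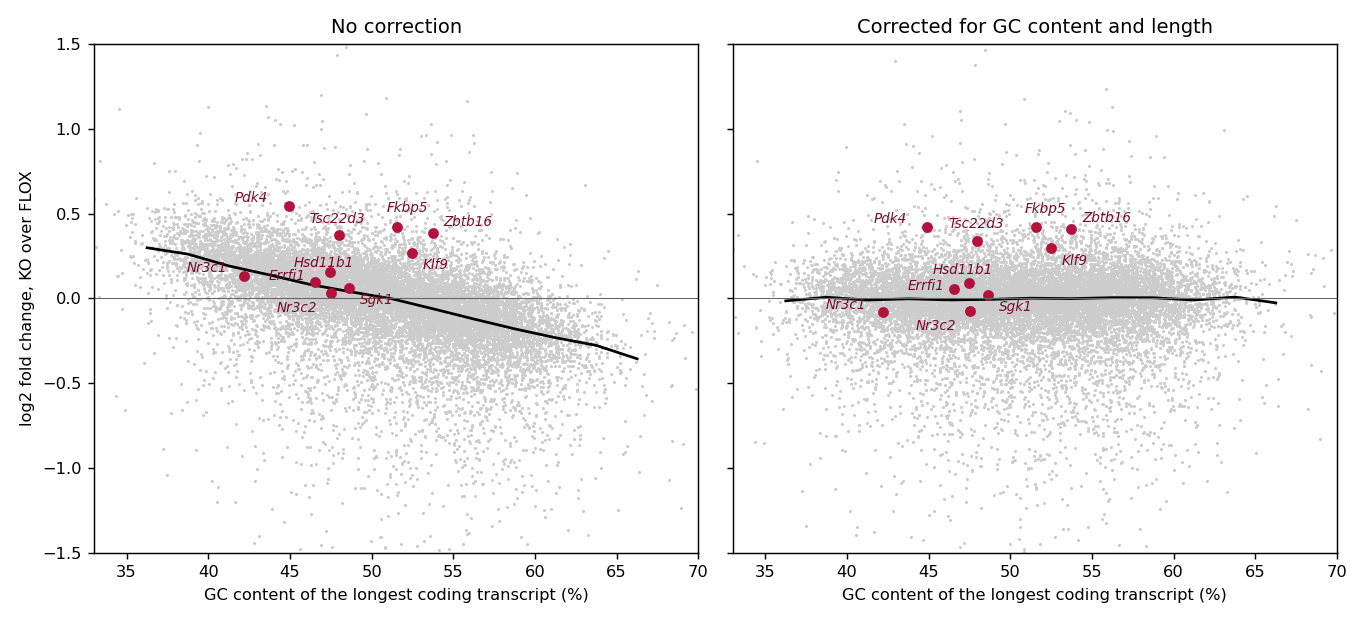
Log2 fold change (y axis, FBN-ARO-KO+GCI over FLOX+GCI) against the GC content of the longest coding transcript in % (x axis) for all genes tested (gray) and 10 glucocorticoid genes (red), without correction (left) and corrected for GC content and length (right). The black line is the median of bins with 20 or more genes. On the left the line falls from AT-rich to GC-rich genes, Nr3c1 and Nr3c2 lie on or under it, and Fkbp5 and Zbtb16 lie above it in both panels.

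Markers of the cell types in the tissue were set beside these values. The summed CPM of 6 oligodendrocyte markers, all detected, was 3885 and 4398 in the FLOX+GCI libraries and 4451 and 4578 in those of FBN-ARO-KO+GCI, a narrow gap in the direction of Fkbp5. For 6 astrocyte markers it was 4731 and 4984 in the FLOX+GCI libraries and 4932 and 5657 in those of FBN-ARO-KO+GCI. The highest of these was in FBN-ARO-KO+GCI replicate 2. Pdk4, Tsc22d3, Klf9, Zbtb16, Nr3c1, Nr3c2 and, narrowly, Fkbp5 were also highest in that library, and Errfi1, Sgk1 and Hsd11b1 were not. For 6 endothelial markers the sum was 239.5 and 164.7 in the FLOX+GCI libraries and 194.5 and 137.0 in those of FBN-ARO-KO+GCI. Its lowest value was in FBN-ARO-KO+GCI replicate 2. Summed interneuron markers were lower in FBN-ARO-KO+GCI (876.6 and 881.6 CPM, against 968.3 and 907.3), and summed microglial markers overlapped (242.7 to 283.0 CPM over all libraries). The 5 choroid plexus markers were lower in sum in FBN-ARO-KO+GCI (43.6 and 49.3 CPM, against 64.4 and 50.5). Their median log2 fold change was 0.09, however, with 1 marker higher and 1 lower without overlap. The summed erythroid markers were lower in FBN-ARO-KO+GCI (1.84 and 2.29 CPM, against 4.15 and 3.08), with Hba-a1, Hba-a2, Hbb-b1 and Hbb-b2 at 0 in at least 1 library. None of these markers had an adjusted p under 0.05. Their part in the differences above was not tested.

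Other genes of the pathway were read from the same fit, in which the quasi-likelihood test of edgeR (Benjamini-Hochberg adjusted) called 2 of 14527 genes at an adjusted p under 0.05 (0.0138%), without correction and with GC content and length corrected. Of the 5 lists described next, it called 0 genes. DESeq2 called 3 (Fam107a, Glul and Bcl6), where it called 4.92% of the 5796 genes it gave an adjusted p, and the likelihood ratio test of edgeR called 4 (Fam107a, Cebpd, Plin4 and Bcl6), where it called 2.02% of all genes.

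The first list held 24 other genes known to be induced by glucocorticoids. None passed an adjusted p of 0.05 (smallest 0.238 in the edgeR test), and at an unadjusted p under 0.05 there were 8 higher and 2 lower, against 8.72% and 7.82% of all genes. Their median log2 fold change was 0.09, and it depended on each library, at 0.008 and 0.195 without FLOX+GCI replicates 1 and 2 and at 0.025 and 0.163 without FBN-ARO-KO+GCI replicates 1 and 2. Fam107a, an actin-binding stress-response gene, had 632.7 and 512.1 CPM in FLOX+GCI and 900.7 and 769.3 CPM in FBN-ARO-KO+GCI, with a log2 fold change of 0.54 (SE 0.12, adjusted p = 0.238 from the same edgeR test). Bcl6, a transcriptional repressor, had 65.6 and 72.2 CPM against 87.9 and 90.4 CPM, a log2 fold change of 0.37 (SE 0.08, adjusted p = 0.238 from edgeR). Cebpd, an inflammation-linked transcription factor, went the other way, with 7.94 and 9.45 CPM against 5.28 and 4.92 CPM and a log2 fold change of -0.77 (SE 0.17, adjusted p = 0.238 from edgeR). Named after their values were seen, the lipid droplet gene Plin4 had the highest log2 fold change of the list (1.16, SE 0.30), with FLOX+GCI libraries that were themselves apart at 9.77 and 21.4 CPM. The clock gene Per1 and the mTOR inhibitor Ddit4, both classical receptor targets, had log2 fold changes of 0.03 (SE 0.07) and 0.00 (SE 0.12). With GC content and length corrected, the median of the list was 0.21, with 8 higher and 1 lower at an unadjusted p under 0.05, against 5.43% and 4.6% of all genes, and Per1 and Ddit4 stood at 0.19 and 0.18.

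The chaperones that hold the receptor were mostly higher. Of 12 genes, 7 were higher at an unadjusted p under 0.05 and 0 lower, against the same 8.72% and 7.82%, with a median log2 fold change of 0.19 and no gene past an adjusted p of 0.05 (edgeR, smallest 0.238). The median was 0.144 and 0.192 without FLOX+GCI replicates 1 and 2, and 0.227 and 0.161 without FBN-ARO-KO+GCI replicates 1 and 2. In each of these fits fewer of the 12 genes had an unadjusted p under 0.05, counted in either direction. The HSP40 gene Dnajb1 had 67.1 and 65.1 CPM in FLOX+GCI and 79.3 and 82.1 CPM in FBN-ARO-KO+GCI (log2 fold change 0.29, SE 0.07). Hsp90aa1, the inducible HSP90, had 191.3 and 195.5 CPM against 219.9 and 235.9 CPM (log2 fold change 0.24, SE 0.07), and the cyclophilin Ppid (CYP40) 54.0 and 46.4 CPM against 57.9 and 66.7 CPM (log2 fold change 0.31, SE 0.11). Corrected for base composition and length, the values were 0.37 for Dnajb1, 0.10 for Hsp90aa1 (43.7% GC) and 0.16 for Ppid (41.4% GC). The corrected median of the list was 0.149, and 5 of the 12 genes were higher at an unadjusted p under 0.05, against 5.43% of all genes. Fkbp4, the relative of Fkbp5 that favors hormone binding, had 142.7 and 154.0 CPM in FLOX+GCI and 157.0 and 152.3 CPM in FBN-ARO-KO+GCI, overlapping, with a log2 fold change of 0.06 (SE 0.07) beside 0.42 for Fkbp5.

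The coregulators of the receptor showed little. Of 10 genes, 0 were higher and 1 lower at an unadjusted p under 0.05, against 8.72% and 7.82% of all genes, and none passed the adjusted threshold (edgeR, smallest 0.271). With a library left out, between 0 and 2 of the coregulators had an unadjusted p under 0.05. Their median log2 fold change of 0.11 was 0.046 without FBN-ARO-KO+GCI replicate 2, and 0.024 with GC content and length corrected. The coactivator Ncoa3 and the corepressor Nrip1 had log2 fold changes of 0.16 (SE 0.08) and 0.18 (SE 0.10).

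Of 10 genes that set the supply of hormone, 6 passed the filter. Without correction, none of the 6 passed an unadjusted or adjusted p of 0.05 (edgeR, smallest adjusted p 0.335). Their median log2 fold change was -0.16 (-0.10 without FLOX+GCI replicate 1). With GC content and length corrected, the median was -0.11. At an unadjusted p under 0.05 (edgeR) there were then 0 higher and 1 lower, against 5.43% and 4.6% of all genes. Abcb1a, the P-glycoprotein that exports corticosteroids at the blood-brain barrier, had 37.2 and 27.8 CPM in FLOX+GCI and 27.1 and 25.5 CPM in FBN-ARO-KO+GCI (log2 fold change -0.31, SE 0.15), its close copy Abcb1b had a log2 fold change of -0.36 (SE 0.22), and the 5α-reductase Srd5a1 one of -0.20 (SE 0.14). Corrected for GC content and length, the log2 fold change was -0.44 for Abcb1a, -0.47 for Abcb1b and -0.19 for Srd5a1. Abcb1a was highest in FLOX+GCI replicate 1, as the summed endothelial markers were. Serpina6, Cyp11b1 and Cyp11b2 had 0 counts in every library, which allows up to 3 counts, or 0.123 CPM on the library total of the shallowest library. Hsd11b2, which inactivates corticosterone, had between 0 and 2 counts.

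In the CRH system, 5 of 7 genes could be tested, with 0 higher and 2 lower at an unadjusted p under 0.05, against 8.72% and 7.82% of all genes (between 1 and 3 genes with a library left out), no gene past the adjusted threshold of edgeR (smallest 0.238), and a median log2 fold change of -0.33. Crhbp, which binds and sequesters CRH and is made by interneurons, had 46.8 and 44.5 CPM in FLOX+GCI and 36.8 and 35.6 CPM in FBN-ARO-KO+GCI. The log2 fold change was -0.33 (SE 0.09, adjusted p = 0.238 from edgeR), and the replicates lay closer together than the groups. The summed interneuron markers were lower in FBN-ARO-KO+GCI as well, and their part was not tested. Pomc, the ACTH precursor, had a count of 54 and 16 in the FLOX+GCI libraries and of 15 and 7 in those of FBN-ARO-KO+GCI, with a log2 fold change of -1.99 (SE 0.64, adjusted p = 0.248 from the same edgeR test), 1 library being far above the other 3. Crhr2 had between 35 and 53 counts, with a log2 fold change of -0.67 (SE 0.31). Crh itself had between 28 and 53 counts and a log2 fold change of 0.05 (SE 0.33), and Ucn had 0 counts in each library.

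**Figure D5:**
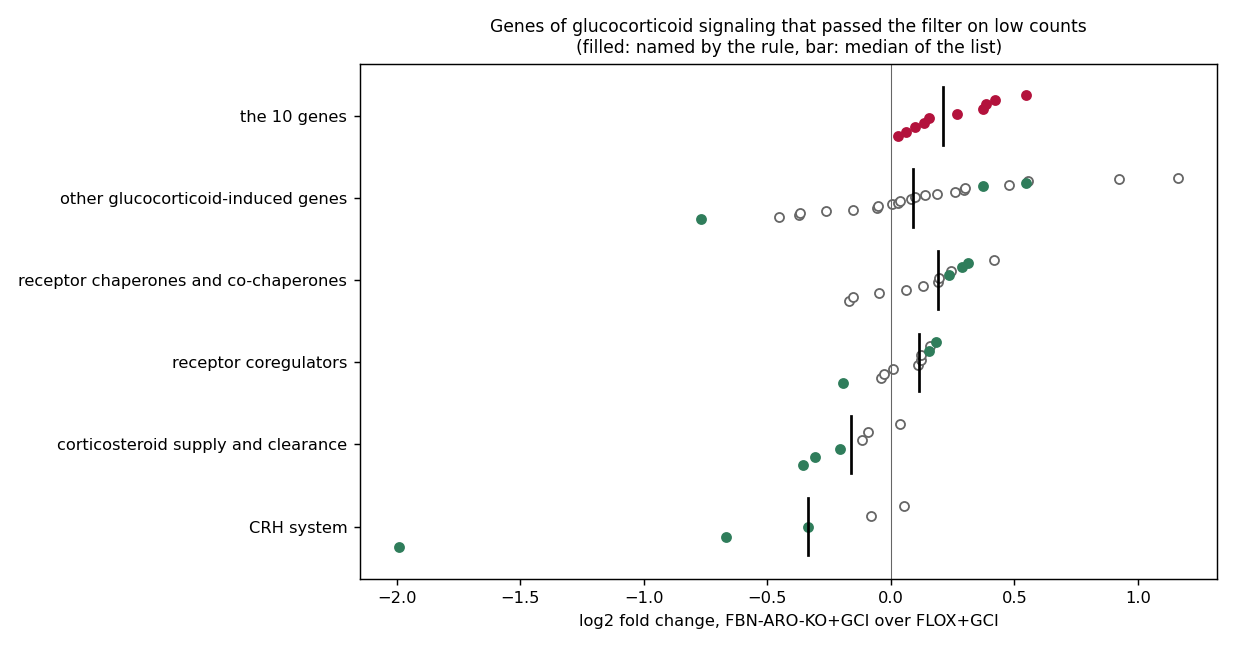
Log2 fold change (x axis, FBN-ARO-KO+GCI over FLOX+GCI) of the 10 genes (red) and of the 5 lists of other glucocorticoid pathway genes, 1 row for each list and 1 point for each gene that passed the filter. Filled points are the genes chosen by the rule and bars are medians, at 0.21 for the 10 genes, 0.09 for other induced genes, 0.19 for chaperones, 0.11 for coregulators, -0.16 for supply and clearance and -0.33 for the CRH system.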

How the data were processed

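Hippocampus RNA of 4 libraries (2 of each genotype) was sequenced with 50 nt single-end reads. Per the labels, the authors aligned the reads to mm9 with TopHat2 2.0.8b, assigned them to gene symbols with HTSeq and deposited the raw counts, not normalized. The HTSeq version, strand setting and annotation release are not given in the sources used here. Reads aligned to several places, between 35.1% and 36.5% of all alignments counted, were dropped by the authors' counting, so genes with near-identical copies (such as Hspa8, Ptges3 and Abcb1a) may be underestimated. The 5 counters of unassigned reads were left out.

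Genotypes were compared with edgeR 4.0.16 in R 4.3.3 (TMM, filterByExpr with a minimum count of 10, quasi-likelihood test, Benjamini-Hochberg adjustment over all genes at 0.05). The SE was taken from the estimate and its F statistic (absolute log2 value over root F). GC content and length came from the longest coding transcript in GENCODE M1 (the build of mm9, 20063 of 22609 symbols matched), and their correction used natural splines with 5 degrees of freedom as an offset. Log2 CPM used a prior count of 2. Alternatives were DESeq2 1.42.0, other scalings, filters and tests, a block for the replicate number, and every library omitted in turn. The procedure was tested on simulated counts.

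The members and lists were chosen with earlier results of these data known. Named genes are the 10 members, the 3 genes of each list with the smallest unadjusted p, the 5 profiles nearest to Fkbp5, and Cyp19a1. A few genes chosen by this rule are not reported here. Since each genotype has 2 libraries, tests borrow their spread across genes.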

Additional observations from a re-analysis of the deposited data

How the results depend on the processing

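Of 130 recomputed log2 fold changes of the 10 genes, 115 kept their sign and stayed within the spread between replicates of the reported value. A further 6 kept their sign but moved by more than that spread, and 9 changed sign, whatever the size of the shift. The other tests, the other filters and the replicate block refit the same contrast on the same libraries and could hardly move it. Their share of the 115 therefore says little about stability. Every value that moved or changed sign came from a library left out, library totals, or the correction for GC content and length. With all libraries kept, Fkbp5, Zbtb16, Tsc22d3, Klf9, Pdk4, Errfi1, Sgk1 and Hsd11b1 stayed above 0 in every alternative. Corrected for base composition and length, Nr3c1 turned to -0.082 (-0.081 with the replicate block added) and Nr3c2 to -0.077 (-0.076), and with library totals Nr3c2 was at -0.008. With 1 library left out, Nr3c2 ranged from -0.025 to 0.082 (below 0 without FLOX+GCI replicate 1 or FBN-ARO-KO+GCI replicate 2), Hsd11b1 from -0.032 to 0.242 and Sgk1 from -0.23 to 0.44, and the median of the 10 genes from 0.16 to 0.36, the highest without FLOX+GCI replicate 2.

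The number of genes called was 285 with DESeq2, 294 with the likelihood ratio test, 5 with every gene of at least 1 count, and between 0 and 202 with 1 library left out (202 without FLOX+GCI replicate 1, 72 without FLOX+GCI replicate 2, and 0 without either FBN-ARO-KO+GCI library). With the replicate number as a block it was 184 (1.27% of genes). Deviations of same-numbered libraries correlated at 0.13 over genes, and the samples share only a number. With the block and the correction together 2 genes were called. Of the 5 lists together, 0 genes were called in the reported fit, 3 with DESeq2, 4 with the likelihood ratio test, 3 with the replicate block (Fam107a, Plin4 and Pomc), and between 0 and 4 with a library left out. Their common median of 0.05 was 0.019 with library totals and between 0.017 and 0.111 with a library left out. No list median changed sign in 65 recomputations. Of these, 52 stayed within the spread between replicates of the reported value and 13 moved by more than that spread. The number of libraries, 2 in each group, limits the precision of the 10 genes, each with at least 261 counts in every library.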
